A study of Homo sapiens with 4 samples.

Results

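Keratins, the intermediate filament proteins of epithelial cells, were followed in HepG2, a human hepatocellular carcinoma cell line, through the reads counted on 10 genes: KRT8, KRT18, KRT19, KRT23, KRT5, KRT14, KRT6A, KRT16, KRT17 and KRT10. The genes were found by symbol from the count tables, which hold 24462 genes, and the reads of repeated symbols were summed. The set was chosen by its read counts in PD0332991 against DMSO, where the skin keratins among them stood higher, so that comparison is a description throughout. The cells were grown in RPMI with 10% fetal bovine serum and fell into 4 conditions with 1 library each: DMSO, the solvent; PD0332991, an inhibitor of the CDK4 and CDK6 kinases dissolved in DMSO; scrambled siRNA; and siRNAs against CDK4 and CDK6 together (CDK4/6 KD). The dose of PD0332991 and the time between treatment and harvest of the sequenced cells were not given in the sources used here. RNA was sequenced from the 3′ end of each transcript (QuantSeq), so a transcript gives about 1 tag whatever its length and tags can be compared between genes. With 1 library per condition no difference has a replicate check and no p-value can be given. Each interval below is a 95% interval of counting error alone, and it compares libraries, not conditions. No molecular identifiers were named, so reads were not shown to be independent molecules.

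A keratin filament is built from dimers of an acidic type I keratin and a basic type II keratin, and cells therefore express keratins in pairs. Hepatocytes make KRT8 (type II) with KRT18 (type I). Bile duct cells add KRT7 and KRT19, the basal layer of the epidermis makes KRT5 with KRT14, the layers above it make KRT1 with KRT10, and wounded or rapidly dividing epidermis makes KRT6 isoforms with KRT16 and KRT17. The type II genes lie together on chromosome 12 and the type I genes on chromosome 17, except KRT18, which sits beside KRT8.

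On GRCh38 with the GENCODE 29 annotation, KRT8 spans chr12:52897187-52949954 on the minus strand and KRT18 spans chr12:52948871-52952901 on the plus strand. The outermost annotated ends of KRT8 and KRT18 where transcription starts overlap, and neither overlaps the other at its 3′ end, where the tags lie. KRT5 spans chr12:52514575-52520687 and KRT6A chr12:52487174-52493257, both on the minus strand. On the minus strand of chromosome 17 lie KRT10 at chr17:40818117-40822595, KRT23 at chr17:40922696-40937634, KRT19 at chr17:41523617-41528308, KRT14 at chr17:41582279-41586921, KRT16 at chr17:41609778-41615899 and KRT17 at chr17:41619441-41624842. The 3′ end of KRT23 overlaps a gene on the other strand, AC004231.1. Reads of 75 bases from the last 500 bases of each transcript were compared with all other annotated transcripts. Of 426 such windows a gene, none was shared exactly with another gene for KRT8, KRT19, KRT23, KRT5, KRT6A, KRT17 and KRT10. The shared part was 0.469% for KRT18, 3.29% for KRT14 (with the pseudogene KRT16P6) and 3.76% for KRT16 (with KRT16P3). Windows that differ by a few bases were not searched, and named pseudogenes number 50 for KRT8 and 68 for KRT18.

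Promoters of 3 of the 10 genes were found by symbol among the RefSeq promoters of GRCh38.p14, which run from 250 bases before to 50 bases after the start site. Those of KRT5 and KRT10 are shown because both genes belong to the epidermis while their levels here had little in common. KRT5 lies at chr12:52520345-52520644 and KRT10 at chr17:40822565-40822864, both read on the minus strand, and capitals mark a match to TATAAA.
KRT5: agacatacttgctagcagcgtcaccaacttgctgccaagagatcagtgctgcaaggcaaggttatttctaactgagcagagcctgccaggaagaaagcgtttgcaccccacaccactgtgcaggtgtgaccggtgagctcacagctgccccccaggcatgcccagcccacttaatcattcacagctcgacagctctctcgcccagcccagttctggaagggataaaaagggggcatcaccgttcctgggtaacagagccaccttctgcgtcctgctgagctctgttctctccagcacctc
KRT10: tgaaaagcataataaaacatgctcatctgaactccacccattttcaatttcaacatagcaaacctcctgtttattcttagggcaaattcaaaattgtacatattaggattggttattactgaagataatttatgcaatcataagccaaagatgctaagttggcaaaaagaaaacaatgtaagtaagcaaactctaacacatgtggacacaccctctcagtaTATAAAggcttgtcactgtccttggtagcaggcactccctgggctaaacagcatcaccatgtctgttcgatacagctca
The KRT10 promoter held TATAAA with its first base at -29 from the start site, and 11.5% of 35116 RefSeq promoters of the same length hold these letters. The KRT5 promoter had a GC content of 56.3% and the KRT10 promoter 37.7%. On both strands, and letting motifs overlap, TGANTCA (the AP-1 site, in 7.71% of promoters), GGGCGG (the GC box, in 45.0%) and TTTNNCGC (the E2F site, in 6.89%) matched in neither of them. The KRT8 promoter, at chr12:52926420-52926719, lies inside the GENCODE span of KRT8 and outside its overlap with KRT18. It also matched none of the 4 motifs.

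The libraries held 8983848 to 11176880 reads, 12780 to 13257 genes had at least 10 reads in each, and the 10 most counted genes took 6.18% to 7.06% of the reads. A floor of 3 reads corresponded to 0.265 to 0.329 CPM (reads in 1000000, after scaling). CDK4 gave 2754 reads in DMSO, 2344 in PD0332991, 3789 in scrambled siRNA and 814 in CDK4/6 KD, a fold change of 0.203 (0.188 to 0.219) in CDK4/6 KD against scrambled siRNA. CDK6 gave 4707, 4361, 5734 and 1464 reads in the same order, with a fold change of 0.241 (0.228 to 0.256), so both siRNA targets were lower in the library labelled as the knockdown. The 26 hepatocyte markers listed, among them ALB and the apolipoproteins, summed to 24611 to 33150 CPM, and every one had a read in at least 3 of the libraries. Together the 10 keratins took 0.127% of the reads in DMSO, 0.109% in PD0332991, 0.237% in scrambled siRNA and 0.143% in CDK4/6 KD.

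**Figure D1:**
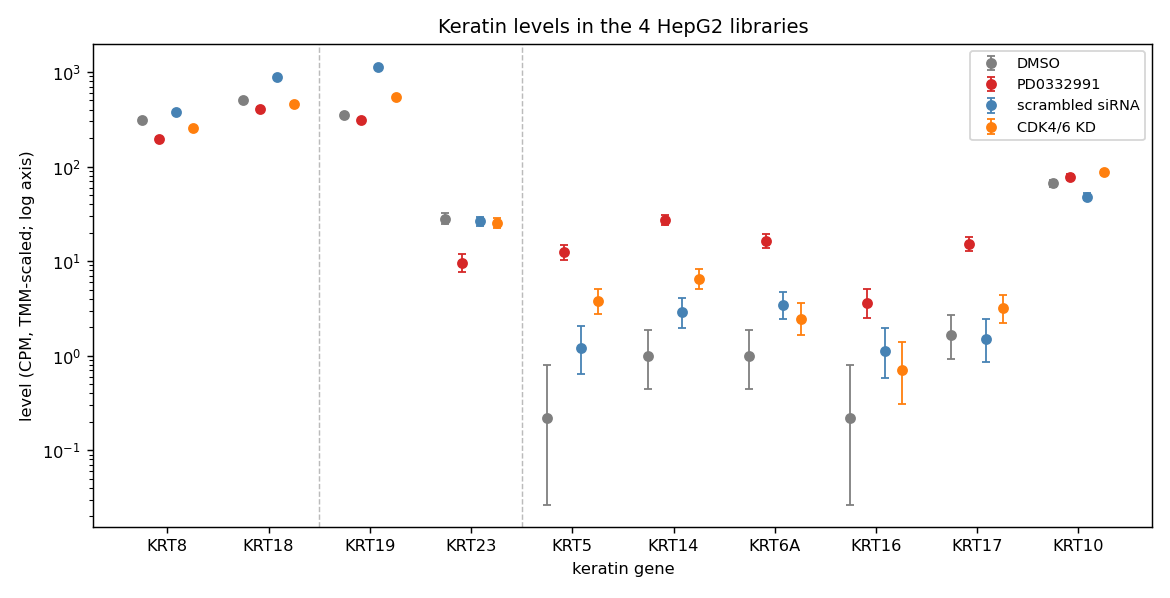
Level of each keratin gene (CPM scaled with TMM factors, log axis) in the 4 HepG2 libraries, 1 point a library; bars are 95% Poisson intervals, and dashed lines separate simple, ductal and stratified keratins. KRT8, KRT18 and KRT19 lie between 196 and 1138 CPM, KRT5, KRT14, KRT6A, KRT16 and KRT17 are highest in PD0332991, and KRT10 lies between 48.0 and 87.1 CPM.

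The hepatocyte keratins were abundant in every library and lower in both libraries with CDK4/6 inhibited than in the control of the same arm. KRT8, the type II partner of the hepatocyte pair, gave 2867 reads in DMSO, 1789 in PD0332991, 4020 in scrambled siRNA and 2892 in CDK4/6 KD, or 314, 196, 376 and 255 CPM. Its fold change was 0.626 (0.59 to 0.665) in PD0332991 against DMSO and 0.68 (0.648 to 0.714) in CDK4/6 KD against scrambled siRNA. KRT18, its type I partner, gave 4584, 3735, 9422 and 5251 reads in the same order, or 502, 410, 881 and 464 CPM. The fold changes of KRT18 were 0.818 (0.783 to 0.854) and 0.527 (0.509 to 0.545). All 4 intervals lay below 1, and none of these fold changes reached a 2-fold difference. Of all genes tested, meaning those with 10 or more reads in 1 of the libraries set side by side, 12.3% had a fold change at or below that of KRT8 in PD0332991 and 28.8% at or below that of KRT18. The same shares were 18.3% and 8.82% in CDK4/6 KD. In bulk RNA, fewer cells making a transcript and less of it per cell cannot be told apart.

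The control libraries differed from each other in the same genes. With scrambled siRNA the fold change over DMSO was 1.76 (1.69 to 1.82) for KRT18 and 1.2 (1.14 to 1.26) for KRT8. Against DMSO in place of scrambled siRNA, the fold change in CDK4/6 KD was 0.925 (0.889 to 0.962) for KRT18 and 0.814 (0.773 to 0.858) for KRT8, so both stayed below 1 with either control. KRT8 made up 38.5% (37.4 to 39.6, exact binomial) of the tags of KRT8 and KRT18 in DMSO, 32.4% (31.2 to 33.6) in PD0332991, 29.9% (29.1 to 30.7) in scrambled siRNA and 35.5% (34.5 to 36.6) in CDK4/6 KD. KRT18 gave more tags than KRT8 in all 4 libraries, and the 4 shares did not overlap in their counting intervals. The share differed more between the controls than between either treated library and its control.

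KRT19, a small type I keratin of bile duct and progenitor cells, ranged more widely than KRT18. It gave 3232 reads in DMSO, 2796 in PD0332991, 12181 in scrambled siRNA and 6122 in CDK4/6 KD, or 354, 307, 1138 and 541 CPM. KRT19 was thus the most counted of the 10 keratins in both siRNA libraries, and KRT18 in DMSO and PD0332991. The fold change was 0.868 (0.825 to 0.913) in PD0332991 and 0.475 (0.461 to 0.49) in CDK4/6 KD against their own controls. Between the controls it was 3.22 (3.1 to 3.35), and only 1.67% of the 13303 genes tested there were as high. Against DMSO in place of scrambled siRNA, the CDK4/6 KD library had 1.53-fold (1.46 to 1.6) more KRT19, so the direction in the knockdown turned with the control. KRT23, a type I keratin of digestive and ductal epithelium, gave 258, 87, 282 and 287 reads in the order DMSO, PD0332991, scrambled siRNA and CDK4/6 KD. Its level was 9.55 CPM in PD0332991 and 25.4 to 28.2 CPM in the other libraries, whose intervals overlapped. The fold changes were 0.34 (0.262 to 0.433) in PD0332991, 0.962 (0.813 to 1.14) in CDK4/6 KD and 0.933 (0.786 to 1.11) between the controls. KRT7, the type II keratin that pairs with KRT19 in ducts, gave 3, 1, 0 and 1 reads, so no fold change is given.

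The basal pair was near the floor in DMSO and highest in PD0332991. KRT5, the type II keratin of the basal epidermis, gave 2 reads in DMSO, 113 in PD0332991, 13 in scrambled siRNA and 43 in CDK4/6 KD, or 0.219, 12.4, 1.21 and 3.8 CPM. KRT14, its type I partner, gave 9, 249, 31 and 74 reads in the same order, or 0.985, 27.3, 2.9 and 6.54 CPM. Both genes had the same order of libraries: PD0332991, then CDK4/6 KD, then scrambled siRNA, then DMSO. For PD0332991 against DMSO, the comparison behind the choice of genes, the read ratio of KRT5 was 56.7 (15.3 to 474) and the fold change of KRT14, with 0.5 reads added to each library, was 26.4 (14.4 to 61.4). CDK4/6 KD against scrambled siRNA shares no library with that comparison. There the fold change was 3.05 (1.65 to 6.34) for KRT5 and 2.24 (1.47 to 3.55) for KRT14. The controls also differed, with a KRT5 ratio of 5.55 (1.26 to 50.7) and a KRT14 fold change of 2.85 (1.37 to 7.02) in scrambled siRNA against DMSO. Against scrambled siRNA, PD0332991 was 9.85-fold (5.74 to 19.8) higher in KRT5 and 9.29-fold (6.48 to 14.2) higher in KRT14. These values use the PD0332991 library behind the choice of genes. KRT5 was 31.2% (26.5 to 36.3) of the tags of KRT5 and KRT14 in PD0332991 and 36.8% (28.0 to 46.2) in CDK4/6 KD. Its share was 29.5% (16.8 to 45.2) in scrambled siRNA and 18.2% (2.28 to 51.8) of only 11 reads in DMSO, so the 4 intervals overlapped.

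The keratins of wounded epidermis were also highest in PD0332991, but only KRT17 among the 3 stood higher in the knockdown than with the scrambled oligos. KRT6A, a type II keratin induced at wound edges, gave 9 reads in DMSO, 150 in PD0332991, 37 in scrambled siRNA and 28 in CDK4/6 KD, or 0.985, 16.5, 3.46 and 2.47 CPM. KRT16, a type I partner of the KRT6 proteins, gave 2, 33, 12 and 8 reads, or 0.219, 3.62, 1.12 and 0.707 CPM. KRT17, a type I keratin of hair follicles and of wounded epidermis, gave 15, 139, 16 and 36 reads, or 1.64, 15.3, 1.5 and 3.18 CPM. KRT6A and KRT16 thus stood higher in scrambled siRNA than in CDK4/6 KD, with overlapping intervals, while KRT17 had 15 and 16 reads in the controls. In PD0332991 against DMSO the fold change of KRT6A was 15.9 (8.58 to 37.3), the ratio of KRT16 was 16.6 (4.23 to 142) and the fold change of KRT17 was 9.03 (5.45 to 17.1). For CDK4/6 KD against scrambled siRNA the fold change was 0.719 (0.422 to 1.2) for KRT6A, 0.645 (0.223 to 1.68) for KRT16 and 2.09 (1.15 to 4.11) for KRT17. At these depths no difference in KRT6A or KRT16 was detectable in the knockdown. Against DMSO in place of scrambled siRNA, KRT6A was 2.44-fold (1.15 to 6.05) and KRT17 1.91-fold (1.03 to 3.81) higher in CDK4/6 KD.

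KRT10, a type I keratin of the suprabasal epidermis, had a level far above the other epidermal keratins and a different order of libraries. It gave 606 reads in DMSO, 701 in PD0332991, 514 in scrambled siRNA and 986 in CDK4/6 KD, or 66.3, 77.0, 48.0 and 87.1 CPM. The fold change was 1.16 (1.04 to 1.3) in PD0332991 against DMSO and 1.81 (1.63 to 2.02) in CDK4/6 KD against scrambled siRNA, below 2-fold in both. It was 0.724 (0.643 to 0.816) in scrambled siRNA against DMSO. KRT1, its type II partner in skin, gave 0, 6, 1 and 2 reads and stayed below the 10 reads needed for a fold change, and KRT2, the type II keratin of the upper epidermis, had no read in any library.

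**Figure D2:**
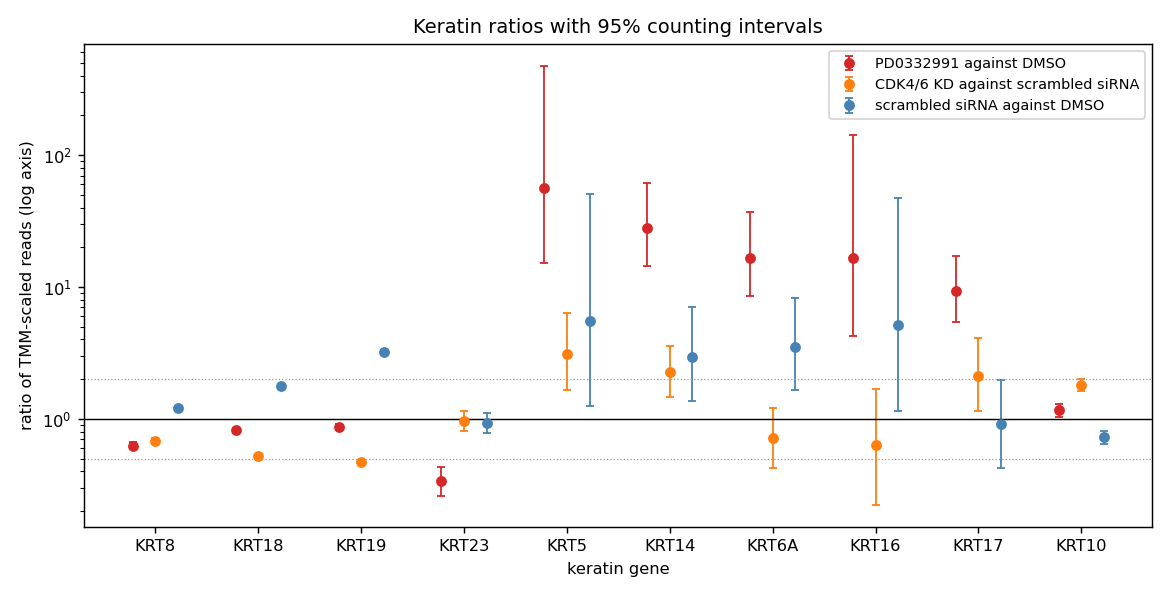
Ratio of TMM-scaled reads of each keratin gene (log axis, no reads added) for PD0332991 against DMSO, CDK4/6 KD against scrambled siRNA and scrambled siRNA against DMSO; bars are 95% counting intervals and dotted lines mark 2-fold. Of the 6 epidermal keratins, KRT5, KRT14, KRT6A, KRT16 and KRT17 lie above 2 in PD0332991, and KRT5, KRT14 and KRT17 in CDK4/6 KD, while KRT8, KRT18 and KRT19 lie below 1 in both.

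All 10 keratins passed the filter of 10 reads in each of these 3 comparisons. In PD0332991 against DMSO 5 passed 2-fold upwards and 1, KRT23, downwards, where 7.49% of the 13443 genes tested were that much higher and 7.06% that much lower. These counts follow from how the genes were chosen, and 4 of the 5 (KRT5, KRT14, KRT6A and KRT16) passed the filter through PD0332991 alone. Ranks in this comparison also follow from the choice of genes. By the lower end of the interval, KRT5 stood at place 1 of the 13443 genes, KRT14 at 2, KRT6A at 5, KRT17 at 10 and KRT16 at 25. In CDK4/6 KD against scrambled siRNA 3 keratins passed 2-fold upwards and 1, KRT19, downwards, beside 9.19% and 7.62% of 13617 genes. The intervals of KRT5, KRT14 and KRT17 reached below 2-fold there, and that of KRT19 lay wholly past it. Between the controls, scrambled siRNA against DMSO, 5 keratins were at least 2-fold higher (KRT19, KRT5, KRT14, KRT6A and KRT16) and none lower, beside 5.3% and 6.64% of 13303 genes. KRT5, KRT14, KRT6A and KRT16 passed the filter there through scrambled siRNA alone, so they had to lie higher in it. As many keratins passed 2-fold upwards between the control libraries as between PD0332991 and DMSO, KRT17 giving way to KRT19. With the controls exchanged, PD0332991 against scrambled siRNA had 5 keratins past 2-fold upwards and 3 downwards (KRT18, KRT19 and KRT23), beside 10.6% and 8.17% of 13552 genes. That comparison uses the PD0332991 library by which the genes were chosen, so its counts also follow in part from the choice. The knockdown against DMSO had 9 keratins tested, 3 past 2-fold upwards (KRT5, KRT14 and KRT6A) and none downwards, beside 8.04% and 8.16% of 13512 genes. All 3 passed the filter there through CDK4/6 KD alone, so the filter favoured that direction and the count says little.

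Summed, KRT5, KRT14, KRT6A, KRT16 and KRT17 gave 37 reads in DMSO, 684 in PD0332991, 109 in scrambled siRNA and 189 in CDK4/6 KD, or 4.05, 75.1, 10.2 and 16.7 CPM. The sum of KRT8 and KRT18 was 815, 607, 1256 and 719 CPM, so the hepatocyte pair outweighed the 5 epidermal genes in every library. Within the 5 genes, KRT17 made up 40.5% (24.8 to 57.9) of the reads in DMSO and 20.3% (17.4 to 23.5) in PD0332991. KRT14 was the largest part in PD0332991, at 36.4% (32.8 to 40.1), and in CDK4/6 KD, at 39.2% (32.2 to 46.5). KRT6A was the largest in scrambled siRNA, at 33.9% (25.1 to 43.6), against 14.8% (10.1 to 20.7) in CDK4/6 KD. The intervals did not overlap for KRT17 between DMSO and PD0332991, nor for KRT6A between scrambled siRNA and CDK4/6 KD.

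**Figure D3:**
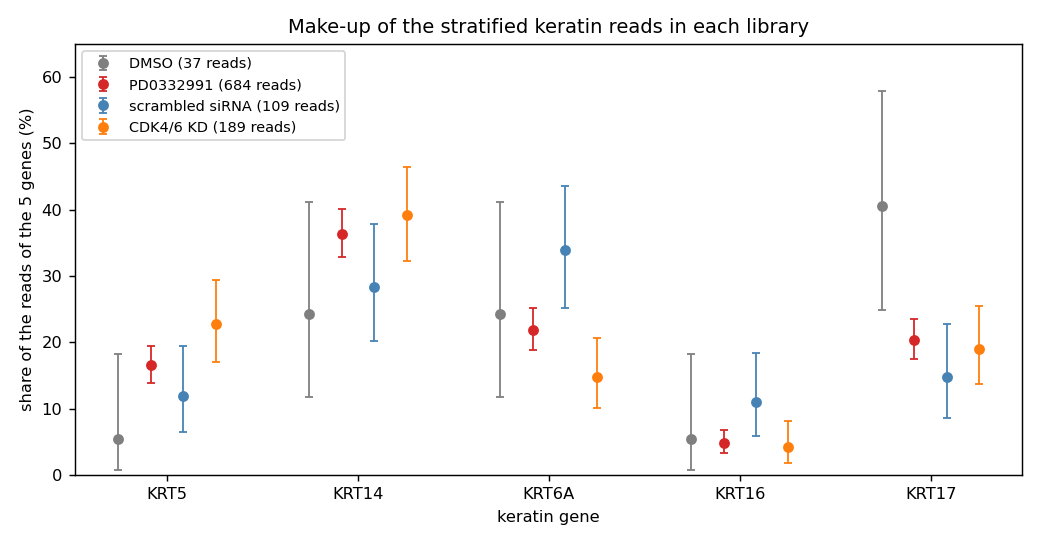
Share of KRT5, KRT14, KRT6A, KRT16 and KRT17 (percent of the reads of these 5 genes) in each of the 4 libraries; bars are 95% exact binomial intervals. The KRT17 share is 40.5% in DMSO and 20.3% in PD0332991, and the KRT6A share is 33.9% in scrambled siRNA and 14.8% in CDK4/6 KD.

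The count tables list 56 keratin genes, and of the 46 outside the 10 studied, 27 had no read in any library, 15 had reads but fewer than 10 in each library, and 4 reached 10 reads. KRT6B, a close copy of KRT6A, gave 5 reads in DMSO, 53 in PD0332991, 19 in scrambled siRNA and 17 in CDK4/6 KD. Its fold change was 9.76 (4.28 to 34.1) in PD0332991, 0.85 (0.413 to 1.72) in CDK4/6 KD and 3.06 (1.17 to 11.1) between the controls, much as for KRT6A. KRT6C, the remaining isoform, gave 0, 8, 1 and 0 reads. KRT6A was 71.1% (64.5 to 77.1) of the reads of the KRT6 isoforms in PD0332991 and 62.2% to 64.9% in the others, with overlapping intervals. KRT15, a type I keratin of basal and stem cells, gave 7, 10, 13 and 17 reads and had fold changes of 1.4 (0.493 to 4.44) in PD0332991 and 1.23 (0.565 to 2.77) in CDK4/6 KD. KRT80, a type II keratin found in many epithelia, gave 24, 21, 16 and 30 reads, with fold changes of 0.881 (0.465 to 1.65) and 1.75 (0.936 to 3.48). KRT12, a keratin of the cornea, gave 2, 0, 10 and 0 reads, and its ratio in the knockdown against the scrambled oligos had an upper interval end of 0.422. KRT4 and KRT13, the mucosal pair, gave 0, 4, 1 and 0 and 0, 5, 2 and 2 reads.

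Other genes of stratified epithelium were followed in lists of markers. Over all genes tested, 7.49% were at least 2-fold higher and 7.06% lower in PD0332991 against DMSO. In CDK4/6 KD against scrambled siRNA the shares were 9.19% and 7.62%. Of 24 basal keratinocyte markers, 13 were tested in PD0332991 against DMSO, 6 passed 2-fold upwards and 3 downwards. Of those 6, 4 reached 10 reads in PD0332991 alone, so the filter itself set their direction, and 2, CSTA and S100A2, had 10 reads in DMSO too. CSTA, a cysteine protease inhibitor, gave 33, 217, 56 and 223 reads in DMSO, PD0332991, scrambled siRNA and CDK4/6 KD. It was 6.52-fold (4.56 to 9.83) higher in PD0332991 and 3.74-fold (2.8 to 5.14) higher in CDK4/6 KD. S100A2, a calcium-binding protein, was 3.01-fold (2.09 to 4.51) higher in PD0332991 but had a fold change of 0.527 (0.349 to 0.777) in CDK4/6 KD. FGFBP1, a carrier of fibroblast growth factors, gave 0 reads in DMSO and 14 in PD0332991, with a lower interval end of 3.33 for the ratio. The knockdown had 9 basal markers tested, of which CSTA passed 2-fold upwards and TNS4, SFN and LAMA3 downwards. The median log2 fold change was -0.79, against 0.00 over all genes tested. TNS4, a focal adhesion protein, gave 131 reads with the scrambled oligos and 6 in the knockdown, a fold change of 0.0468 (0.0156 to 0.0968). SFN, the epithelial 14-3-3 protein, gave 3266 and 1152 reads, a fold change of 0.334 (0.312 to 0.357). LAMA3, a laminin chain, gave 23 and 10 reads, a fold change of 0.423 (0.175 to 0.898). Among the 9 tested, more basal markers were thus lower than higher in the library where KRT5 and KRT14 were 3.05-fold and 2.24-fold higher. Of the 3 lower, TNS4 passed the filter through scrambled siRNA alone, so the filter itself set its direction and the balance rests on few genes. With no filter 8 basal markers were at least 2-fold higher and 6 lower. That count takes in genes with 1 read against 0, such as FGFBP1 and TP63, so no conclusion is drawn from it. TP63, the defining transcription factor of basal keratinocytes, gave 1, 1, 0 and 1 reads.

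Of 32 suprabasal and cornified markers, 9 were tested in PD0332991 and 7 were at least 2-fold higher, with none lower, beside 7.49% and 7.06% of all genes tested. Of those 7, 6 reached 10 reads in PD0332991 alone, so the filter itself set their direction and the count says little of the list. TGM1, a cross-linking enzyme of the cornified envelope, also had 10 reads in DMSO, with 11 there and 28 in PD0332991, a fold change of 2.49 (1.23 to 5.69). SPRR1A, a precursor of the cornified envelope, gave 4 reads in DMSO, 114 in PD0332991, 26 in scrambled siRNA and 26 in CDK4/6 KD. Its fold change was 25.5 (10.9 to 107) in PD0332991 and 0.946 (0.527 to 1.69) in CDK4/6 KD. SPRR1B, a close relative, gave 4, 57, 13 and 15 reads, with fold changes of 12.8 (5.29 to 54.3) and 1.09 (0.484 to 2.49). Like KRT6A, both SPRR1 genes were highest in PD0332991 and showed no detectable difference in the knockdown. S100A9, a calcium-binding protein of activated epidermis and myeloid cells, gave 0 reads in DMSO and 13 in PD0332991, with a lower interval end of 3.06. KLK5, a protease of the outer epidermis, gave 0 and 11, with a lower interval end of 2.52. The knockdown had 6 suprabasal markers tested, of which 2 were at least 2-fold higher, beside 9.19% of all genes tested. Of these 2, DSC1 passed the filter through CDK4/6 KD alone. LY6D, a membrane protein of squamous cells, gave 24 and 68 reads, a fold change of 2.65 (1.66 to 4.46). DSC1, a desmosomal cadherin, gave 1 and 11 reads, a ratio of 10.4 (1.51 to 448). LOR, CALML3, S100A7, TGM3, SERPINB4 and CASP14 had no read in any library.

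The keratinocyte lists were also described without the filter, by reads seen and summed levels. A read was seen for 19 of the 24 basal markers in DMSO, 24 in PD0332991, 17 in scrambled siRNA and 20 in the knockdown, and for 13, 25, 18 and 21 of the 32 suprabasal markers. The basal list summed to 599 CPM in DMSO and 642 in PD0332991, and to 919 and 627 CPM in scrambled siRNA and CDK4/6 KD. The suprabasal list summed to 39.1 and 85.3 CPM in DMSO and PD0332991 and to 63.5 and 48.6 CPM in the siRNA libraries. Most of these reads came from genes counted at 10 or more reads in both controls. The 15 basal markers below that gave 20, 104, 24 and 27 reads, and the 30 suprabasal ones 33, 318, 85 and 119. These genes were picked by low reads in a control, which favours higher sums in the treated libraries, so no conclusion is drawn from them. Markers of other cells of skin were few: the 7 melanocyte markers gave 16, 11, 6 and 20 reads in all and the 6 sweat gland markers 0, 4, 0 and 1, with TYR, DCD, SCGB2A2, PIP and AQP5 at 0 throughout. No melanocyte or sweat gland marker reached 10 reads in PD0332991 or DMSO. In CDK4/6 KD PMEL, a melanosome protein, gave 12 reads against 0, with a lower interval end of 2.63. Whether RNA from other cells had a part in the keratin counts was not tested.

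**Figure D4:**
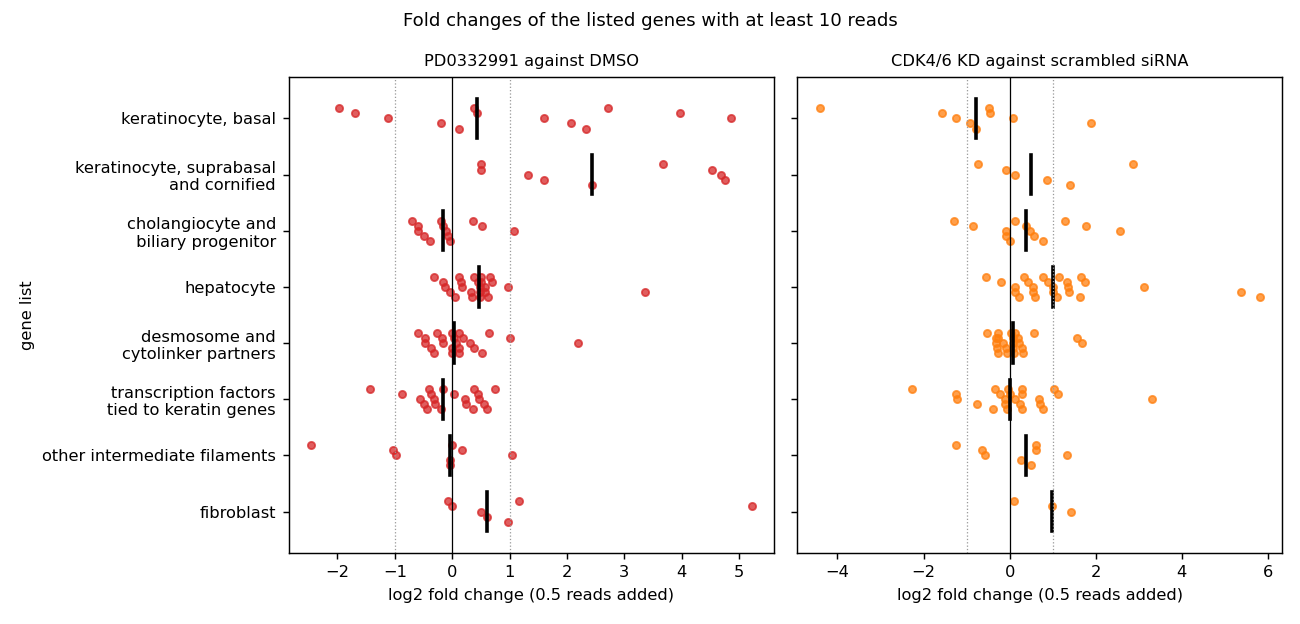
Log2 fold change (0.5 reads added) of each listed gene with 10 or more reads in 1 of the libraries set side by side, for PD0332991 against DMSO and CDK4/6 KD against scrambled siRNA; each point is a gene, black bars are list medians and dotted lines mark 2-fold. In PD0332991, 6 of the 9 suprabasal points and 4 of the 13 basal points are genes that reached 10 reads there and not in DMSO, and the hepatocyte median is 1.00 in CDK4/6 KD.

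Fibroblast and blood markers were set beside these. The 10 fibroblast markers summed to 132, 159, 72.8 and 92.0 CPM. In PD0332991 7 were tested and 2 were at least 2-fold higher, beside 7.49% of all genes tested. The median log2 fold change was 0.61, against 0.02 over all genes tested. COL1A2, a collagen chain, gave 66, 148, 17 and 36 reads, 2.24-fold (1.67 to 3.06) higher in PD0332991. DCN, a matrix proteoglycan, gave 18 reads in PD0332991 and 0 in DMSO, with a lower interval end of 4.41. It passed the filter through PD0332991 alone, so the filter itself set its direction. COL1A1, a collagen chain, gave 332, 468, 73 and 207 reads, COL3A1, another, 30, 59, 1 and 7, PDGFRB, a growth factor receptor, 11, 17, 1 and 5, FBLN1, a matrix protein, 746, 707, 683 and 777, and THY1, a surface glycoprotein, 13, 13, 3 and 2. Of the 3 tested in CDK4/6 KD only COL1A1 passed 2-fold, at 2.67 (2.04 to 3.55), beside 9.19% of all genes tested. The median was 0.98. Between the controls, 5 of 6 fibroblast markers tested were at least 2-fold lower in scrambled siRNA, beside 6.64% of all genes tested. Of the 6, 3 (COL3A1, PDGFRB and THY1) passed the filter through DMSO alone, so they had to lie lower in scrambled siRNA. Of 11 blood and endothelial markers 2 were tested, LYZ and CD14, with neither past 2-fold in PD0332991 and 1 in each direction in the knockdown. There 9.19% of all genes tested were at least 2-fold higher and 7.62% lower, and CD14 passed the filter through CDK4/6 KD alone. LYZ, lysozyme, gave 6780, 4587, 10932 and 5676 reads, with a fold change of 0.679 (0.654 to 0.705) in PD0332991 and 0.491 (0.475 to 0.507) in CDK4/6 KD. CD14, a coreceptor for bacterial lipopolysaccharide, gave 20, 29, 4 and 10 reads, with fold changes of 1.44 (0.795 to 2.71) and 2.22 (0.682 to 10.3). CD3E, HBB, CDH5 and CLDN5 had no read.

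Markers of the liver and of bile ducts gave a reference for the hepatocyte and ductal keratins. Of 26 hepatocyte markers 24 were tested in PD0332991, with 1 at least 2-fold higher, none lower and a median log2 fold change of 0.46. For CDK4/6 KD 25 were tested, with 12 at least 2-fold higher, none lower and a median of 1.00. Of those 12, 2 (CYP2E1 and ITIH1) passed the filter through CDK4/6 KD alone. Over all genes tested, 7.49% were at least 2-fold higher and 7.06% lower in PD0332991, and 9.19% and 7.62% in CDK4/6 KD. HPX, which binds heme in plasma, gave 103, 106, 85 and 791 reads and was 8.75-fold (7.03 to 11.1) higher in CDK4/6 KD. FGA, a fibrinogen chain, was 3.38-fold (3.25 to 3.53) higher there, and CYP2E1, an ethanol-metabolizing enzyme, gave 4, 2, 0 and 21 reads, with a lower interval end of 4.92. ITIH1, a plasma protease inhibitor heavy chain, gave 3, 35, 2 and 149 reads, a ratio of 11.7 (3.69 to 59.5) in PD0332991 and 70.4 (19.2 to 587) in CDK4/6 KD. KRT8 and KRT18 thus had fold changes below 1 in the comparisons where the median of these liver markers lay above 0 on the log2 scale. Of 22 cholangiocyte and biliary progenitor markers 13 were tested in each comparison. TFF3, a secreted mucosal peptide, was the 1 gene at least 2-fold higher in PD0332991, at 2.1-fold (1.13 to 4.25), and none was lower, with a median of -0.16. The knockdown had 3 past 2-fold upwards and 1 downwards, with a median of 0.38. TFF3 gave 15, 32, 16 and 103 reads and was 5.94-fold (3.57 to 11.0) higher in CDK4/6 KD. ONECUT1, a transcription factor of hepatic and biliary development, was 3.4-fold (2.16 to 5.74) higher, PROM1, a membrane protein of progenitor cells, 2.43-fold (1.87 to 3.21) higher, and JAG1, a Notch ligand, had a fold change of 0.407 (0.364 to 0.455). SOX9 and EPCAM, which mark duct and progenitor cells, had fold changes of 1.01 (0.948 to 1.07) and 1.1 (1.03 to 1.18) there, in the comparison where KRT19 was at 0.475.

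Of 16 other intermediate filament genes 8 were tested in each comparison. In PD0332991 1 was at least 2-fold higher and 2 lower, with a median log2 fold change of -0.04, and in CDK4/6 KD 1 was higher and 1 lower, with a median of 0.39. Over all genes tested, 7.49% were that much higher and 7.06% lower in PD0332991, with a median of 0.018. The shares were 9.19% and 7.62% in CDK4/6 KD, with a median of -0.004. The higher gene in CDK4/6 KD, VIM, passed the filter through that library alone. VIM, vimentin, the filament of mesenchymal cells, gave 56, 115, 8 and 22 reads, with fold changes of 2.05 (1.48 to 2.89) in PD0332991 and 2.51 (1.11 to 6.75) in CDK4/6 KD, and 0.129 (0.0502 to 0.257) between the controls. LMNB1, a nuclear lamin that is lost in senescent cells, gave 1540, 278, 1161 and 833 reads. Its fold change was 0.181 (0.159 to 0.206) in PD0332991 and 0.678 (0.62 to 0.742) in CDK4/6 KD. LMNB2, the other B-type lamin, stood at 0.49 (0.449 to 0.534) and 1.21 (1.11 to 1.32). NES, nestin, an intermediate filament of progenitor cells, stood at 0.504 (0.436 to 0.581) and 0.42 (0.37 to 0.474). LMNA, the A-type lamin, had fold changes of 0.977 (0.895 to 1.07) and 0.638 (0.592 to 0.688). SYNM and SYNC, filament proteins best known in muscle, and BFSP1, a lens filament protein, lay between 0.968 and 1.12 in PD0332991 and between 1.41 and 1.54 in CDK4/6 KD. Intervals wholly below 1 in both comparisons were thus found for LMNB1 and NES, as for KRT8, KRT18 and KRT19.

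Of 24 genes for proteins that anchor or regulate keratin filaments, 23 were tested in each comparison, 2 were at least 2-fold higher and none lower, where 7.49% of all genes tested were that much higher in PD0332991 and 9.19% in CDK4/6 KD. The median log2 fold changes were 0.03 and 0.07, against 0.02 and 0.00 over all genes. KLHL24, the substrate receptor of a ubiquitin ligase that targets KRT14, gave 38, 175, 52 and 178 reads. It was 4.57-fold (3.24 to 6.75) higher in PD0332991 and 3.22-fold (2.36 to 4.5) higher in CDK4/6 KD, with 1.17 (0.754 to 1.82) between the controls. EVPL, envoplakin, a linker of keratins to the cornified envelope, was 2.01-fold (1.54 to 2.67) higher in PD0332991. EPPK1, epiplakin, which binds keratin filaments, was 2.98-fold (2.48 to 3.62) higher in CDK4/6 KD, but it was also at 0.339 (0.278 to 0.41) in scrambled siRNA against DMSO.

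Of 34 transcription factors tied to keratin genes, 21 were tested in PD0332991, with none at least 2-fold higher and 1 lower, beside 7.49% and 7.06% of all genes tested. The median log2 fold change was -0.16. The knockdown had 23 tested, with 3 higher and 3 lower, beside 9.19% and 7.62%, and a median of 0.01. FOSL1, an AP-1 subunit, gave 115, 42, 137 and 62 reads and was lower in both, with fold changes of 0.369 (0.251 to 0.526) and 0.43 (0.312 to 0.582). FOXA1, a liver and epithelial factor, was 2.18-fold (1.92 to 2.5) higher in CDK4/6 KD and CEBPB, a factor of the acute phase response, 2.04-fold (1.87 to 2.23) higher. KLF5, a factor of basal and gut epithelium, had a fold change of 0.424 (0.23 to 0.732), and FOS, an AP-1 subunit, gave 2 reads against 11, a ratio of 0.172 (0.0185 to 0.788). GRHL2, a regulator of epithelial genes, had no read in any library.

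Profiles most like those of KRT14 and KRT18 were sought among 11812 other genes with at least 100 reads over the 4 libraries, by Euclidean distance between log2 CPM values centred on each gene's mean. The 4 points of a profile are 4 libraries, so the distances are a description. Nearest to KRT14 were SPRR1A at 0.908, AQP8, a water channel, at 1.05, RNASEH2B-AS1, an antisense transcript whose reads could be those of its partner if counting ignored strand, at 1.28, TSC22D3, a glucocorticoid-responsive regulator, at 1.37 and ZNF425, a zinc finger protein, at 1.44. Among keratins KRT5 was at 0.849, KRT6A at 1.28, KRT17 at 1.43, KRT16 at 1.45 and KRT10 at 3.2. AQP8 gave 12 reads in DMSO, 134 in PD0332991, 36 with scrambled oligos and 92 in the knockdown, and TSC22D3 gave 6, 110, 26 and 122. KRT5, with 2 reads in DMSO, was nearer to KRT14 than any gene outside the keratins was. Both were chosen by their reads in PD0332991 against DMSO, which are part of the profile, so their closeness follows in part from that choice. Nearest to KRT18 were BTG2, an antiproliferative protein, at 0.0857, CD83, an immunoglobulin-family surface protein, at 0.0981, PIM2, a serine/threonine kinase, at 0.111, EPS8, an actin regulator, at 0.114 and RASA2, a Ras GTPase-activating protein, at 0.122. KRT8 was at 0.415 and KRT19 at 0.767, so the partner keratin was farther from KRT18 than these genes were.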

How the data were processed

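The libraries were made from total RNA of HepG2 cells with a QuantSeq 3′ kit and read as single-end 75-base reads on a NextSeq 500. Counts were used as the authors deposited them, unnormalized whole reads for each gene symbol with 1 file a library. The submitters' processing notes name Bowtie2, edgeR and hg19, and the read counter, its strand setting and the annotation were not given in the sources used here. The paper's results call the data a microarray, whereas sequencing is what its methods and the labels describe, and the values were treated as read counts. Each file held 25737 entries, and 286 repeated symbols were summed to leave 24462 genes.

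Library sizes were scaled with TMM factors, 0.957 to 1.03, from edgeR 4.0.16 (R 4.3.3). Fold changes had 0.5 reads added, scaled to library size, and a gene needed 10 or more reads in 1 of the libraries set side by side. Where a control had 1 to 3 reads the plain ratio was given, and where a library had 0 reads only the end of the 95% interval of the ratio nearer to 1. Intervals at 95% came from the Clopper-Pearson split of reads, Poisson limits for levels and exact binomial limits for shares (scipy 1.17.1), and they cover counting error only. No test was run, since 1 library per condition leaves edgeR's quasi-likelihood fit no residual degrees of freedom. The procedure was tested on simulated data. Gene positions, read windows and promoters came from GENCODE 29 on GRCh38 and RefSeq on GRCh38.p14, and no coordinate was converted from hg19.

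The keratins and the 11 gene lists were chosen with earlier results of these data known. Genes named were the 10 keratins, other keratins with at least 10 reads in a library, up to 4 genes per list by the interval end nearest to 1 in the direction of the larger count, every tested gene of a list with 8 or fewer of them, and the 5 nearest profiles. Some genes that this rule names are not reported here. TP63, KRT1, KRT2, KRT4, KRT6C, KRT7, KRT13, JAG1, TGM1, SOX9, EPCAM and the genes at 0 were named after their values were seen. Alternatives were DESeq2 1.42.0 size factors, total counts, 5 reads added, the control of the other arm, keeping for a repeated symbol its most counted entry, no filter, a filter of 50 reads, a 1.5-fold threshold, and requiring the entire interval to pass 2-fold.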

Additional observations from a re-analysis of the deposited data

How the results depend on the processing

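No difference here has a replicate, and leaving out a library was not possible with 1 library a condition. No paired analysis was possible because the groups share fewer than 2 replicate numbers. Of 20 keratin fold changes, 20 stayed within their counting intervals with DESeq2 size factors, with 5 reads added and with a repeated symbol's most counted entry. With total counts 17 did, and in CDK4/6 KD KRT8 moved to 0.731, KRT18 to 0.566 and KRT19 to 0.511. The control of the other arm moved 15 and reversed 1, KRT19 in CDK4/6 KD, at 1.53, and this rests on the difference between the control libraries. The number of keratins higher in PD0332991 was 4 with a filter of 50 reads, which KRT16 did not pass, and 5 under each other alternative. Those lower numbered 3 with the other control and 2 at 1.5-fold, against 1. In CDK4/6 KD the number higher was 1 with a filter of 50 reads and 0 when the whole interval had to pass 2-fold, against 3. The number lower was 0 with total counts, 0 with the other control and 3 at 1.5-fold, against 1. Of 44 counts for the gene lists, between 0 and 26 moved by over 1.5 times under an alternative, most with no filter. The suprabasal count higher in PD0332991 was 21 with no filter, 2 with 50 reads and 4 on the whole interval, against 7, and the basal count was 13 with no filter and 2 with 50 reads, against 6. In CDK4/6 KD the basal counts with no filter were 8 higher and 6 lower, against 1 and 3. Counts with no filter take in genes with 1 read against 0. Depth limits KRT5 and KRT16 most, with 2 reads each in DMSO.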
